A study of Mus musculus with 2 samples.

Results

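Basement membrane components were described in mandibular first molars and surrounding tissue as 10 genes: Col4a1, Col4a2, Lama2, Lama4, Lama5, Lamb1, Lamc1, Nid1, Nid2 and Hspg2. They were chosen by symbol alone, and 10 of the 34285 genes in the deposited count matrices are members. A basement membrane is a thin sheet of matrix that lies under epithelium and endothelium and around pericytes, smooth muscle and Schwann cells. It is built from a network of type IV collagen and a network of laminins, which are trimers of an α, a β and a γ chain, and the networks are joined by nidogens and by the heparan sulfate proteoglycan perlecan, the product of Hspg2. In teeth such sheets lie between dental epithelium and mesenchyme and around the vessels and nerves of pulp, follicle and periodontal tissue.

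Single-cell RNA sequencing was performed on 1 library per condition. The Lipo-Clo library came from C57BL/6J mice injected intraperitoneally with clodronate liposomes, which deplete macrophages, at 40 μg/g body weight, first on PN3.5, then on PN6.5 and PN9.5, and last on PN12.5. The Lipo-PBS library came from C57BL/6J mice given vehicle liposomes on the same days. Both groups were sacrificed at PN15.5, and the molars with their surrounding tissue were digested with Dispase and Collagenase I before capture on the 10x Genomics platform. The number of mice behind a library is not given in the sources used here, and with 1 library per condition no difference below has a replicate check and no test between conditions was possible. Intervals are at the 95% level, exact Poisson for counts and exact Clopper-Pearson for shares, and cover counting error only.

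The Lipo-Clo library held 31053404 unique molecular identifiers (UMIs, 1 per captured transcript) in 9362 cells and the Lipo-PBS library 30537834 UMIs in 9653 cells. After filtering, 8254 Lipo-Clo and 8261 Lipo-PBS cells were kept, and 23 of the kept barcodes occurred in both libraries. The cells were clustered without the members and related genes among the variable genes. In Lipo-Clo and Lipo-PBS, 388 and 457 cells were endothelium, 357 and 492 perivascular, 163 and 251 glia, 734 and 592 epithelium, and 4288 and 4084 dental mesenchyme. The defining markers of each class were present in it, for example a summed 7811 and 5164 counts per 1000000 UMIs (CPM) for the endothelial list in endothelium. Another 654 Lipo-Clo and 1348 Lipo-PBS cells stayed unnamed, because the marker rule gave their cluster no name or their subcluster was led by markers of another lineage. The libraries also differed in mitochondrial UMIs, with 0.370% in Lipo-Clo and 1.73% in Lipo-PBS, and in haemoglobin UMIs, with 21899 and 51283 CPM in mesenchyme. A level below is the members' UMIs per 1000000 UMIs of a class (CPM), and capture can differ between genes, so shares and ratios between genes below are of captured UMIs and not of transcripts per cell.

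Type IV collagen transcripts were most abundant in the cells of vessels. Col4a1 encodes the α1 chain of the main collagen IV trimer and stood at 2696 CPM (2562 to 2834) in Lipo-Clo endothelium and 1803 CPM (1721 to 1888) in Lipo-PBS endothelium. Perivascular cells, a class named from markers of pericytes and vascular smooth muscle, held 2622 CPM (2492 to 2756) and 2354 CPM (2260 to 2451). The 2 classes overlapped in Lipo-Clo, whereas in Lipo-PBS the perivascular level was higher. With each library clustered on its own, endothelium ranked first in Lipo-PBS for Col4a1, and also for Col4a2, which is described below. Glia, the Schwann cells of the nerves, came next with 490.1 and 544 CPM, and mesenchyme held 98.9 and 194 CPM. Epithelium, with 43.6 and 57.4 CPM, lay near or below the 41.5 and 94.3 CPM of the pooled neutrophils, B cells, T or NK cells and erythroid cells, which here served as the background of free RNA. Cells with at least 1000 UMIs were thinned to that depth, and shallower ones were left out. This kept 222 Lipo-Clo and 308 Lipo-PBS endothelial cells and 471 and 174 neutrophils. Of these, 83.8% and 75.3% of endothelial cells had a Col4a1 UMI, against 4.03% and 10.3% of neutrophils. Over all cells without thinning the shares were 84.0% and 84.2% of endothelial cells and 7.13% and 14.7% of neutrophils. Median depths were then 1095.5 and 1294 UMIs in endothelium and 2675 and 2035.5 UMIs in neutrophils.

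Col4a2 encodes the α2 chain of the same trimer and was likewise highest in these vascular classes, which overlapped in Lipo-Clo, with the perivascular level higher in Lipo-PBS. It stood at 1302 and 726 CPM in Lipo-Clo and Lipo-PBS endothelium, 1307 and 1132 CPM in perivascular cells and 295 and 306 CPM in glia. Mesenchyme held 71.96 and 118 CPM, and epithelium, at 27.8 and 31.4 CPM, again lay at the blood cell level of 26.9 and 46.7 CPM. The vascular classes thus exceeded the blood cells by 48.3 and 48.5 times in Lipo-Clo and by 15.54 and 24.2 times in Lipo-PBS. Both genes lie head to head on chromosome 8. In the RefSeq promoter table (GRCm38.p6) their transcripts start on opposite strands at 11312826 and 11312805, so that the first 22 bases of both are the same DNA. That stretch, chr8:11312805-11312826 on the plus strand, is shown because 1 DNA segment begins both transcripts.
Col4a1 and Col4a2 shared start: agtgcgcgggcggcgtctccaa
Over 56 points, each a subcluster or blood cell cluster in 1 library with at least 50 cells in both libraries, Col4a1 and Col4a2 levels on the log2(CPM + 10) scale had a Pearson correlation of 0.99, the highest of the 45 pairs of members. The points share libraries, and the value is a description. The plot of member levels by class shows both chains highest in the vascular classes.

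**Figure D1:**
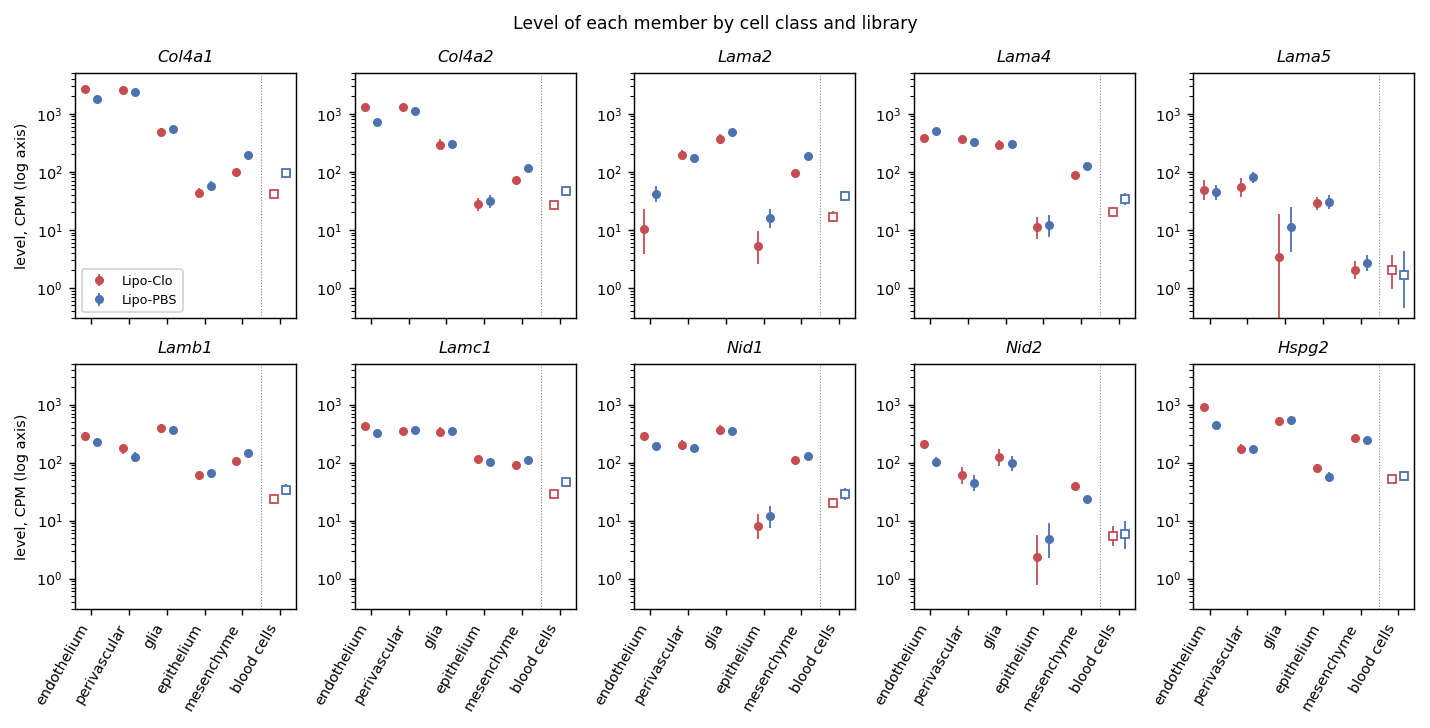
Level of each of the 10 members (CPM, log axis) in endothelium, perivascular cells, glia, epithelium and mesenchyme for Lipo-Clo and Lipo-PBS, with exact 95% Poisson intervals as lines and the pooled blood cell classes as squares. Col4a1 and Col4a2 were highest in endothelium and perivascular cells, with Col4a1 at 2696 and 2354 CPM at the top of each library, while Lama2 was highest in glia and Lama5 was near the blood cell level in mesenchyme.

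The 3 laminin α chains among the members divided the tissue. Lama2 encodes the α2 chain of muscle and Schwann cell laminins. It was highest in glia, at 373 CPM (307 to 449) in Lipo-Clo and 485 CPM (427 to 548) in Lipo-PBS, and perivascular cells held 196 and 174 CPM. Mesenchyme held 95.5 and 190.4 CPM, while endothelium, at 10.5 and 41.9 CPM, was near the blood cells at 16.8 and 38.3 CPM. Lama4 encodes the α4 chain of endothelial and other mesenchymal laminins. It reached 378 CPM (329 to 432) and 503 CPM (459.9 to 549) in endothelium, 361 and 333 CPM in perivascular cells and 292 and 302 CPM in glia. Endothelium and perivascular cells overlapped in Lipo-Clo and did not in Lipo-PBS. Mesenchyme held 86.5 and 126 CPM and epithelium only 11.02 and 11.9 CPM, below the blood cells.

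Lama5, the α5 chain of epithelial and mature vascular laminins, had the fewest UMIs of the members. It was highest in perivascular cells, at 54.5 CPM (37.3 to 76.9) in Lipo-Clo and 80.1 CPM (63.5 to 99.7) in Lipo-PBS. In Lipo-Clo perivascular cells and endothelium overlapped, with 32 and 28 UMIs. Endothelium ranked first in that library with doublets kept, every deposited cell kept, Leiden resolution 2, each library clustered on its own, or the mean over cells. Endothelium held 49.2 and 44.9 CPM and epithelium 29.2 and 30.3 CPM, which was 14.4 and 18.01 times the blood cell level. That blood cell level rests on only 10 and 4 UMIs, so the size of these multiples is uncertain. Mesenchyme stood at 2.07 and 2.72 CPM and the blood cells at 2.03 and 1.68 CPM, so Lama5 could not be told from background in mesenchyme as a whole. The dental follicle-like subcluster described below held 20 of its 30 Lama5 UMIs in Lipo-Clo and 17 of 37 in Lipo-PBS. Its level over both libraries, 10.8 CPM, was above that of the blood cells. As a share of Lama2, Lama4 and Lama5 UMIs together, Lama4 made up 86.3% (81.4 to 90.4) and 85.3% in endothelium of Lipo-Clo and Lipo-PBS. Lama2 made up 55.8% and 60.7% in glia, and Lama5 64.2% and 51.9% in epithelium. Lama3, another α chain, is not among the members and not in these shares. Its level in epithelium, given below, was higher than that of Lama5 in both libraries. Perivascular cells were mixed, with 59.1% and 56.7% Lama4 and 32.03% and 29.7% Lama2. In mesenchyme Lama2 took 51.9% in Lipo-Clo and 59.7% in Lipo-PBS, and Lama4 47.0% and 39.4%, with intervals of the 2 libraries that did not overlap for either chain. Mesenchymal subclusters differed in this. The Lama2 share was 48.6% and 67.6% in the one led by Edil3, Matn4 and Aspn. It was 63.8% and 64.3% in the one led by Clec3b, Tnxb and Cd34, which held 572 Lipo-Clo and 945 Lipo-PBS cells. In the one led by Lrrc4c, Kcnip4 and Plppr1 it was 62.4% and 52.5%. The plot of α chain shares gives these values.

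**Figure D2:**
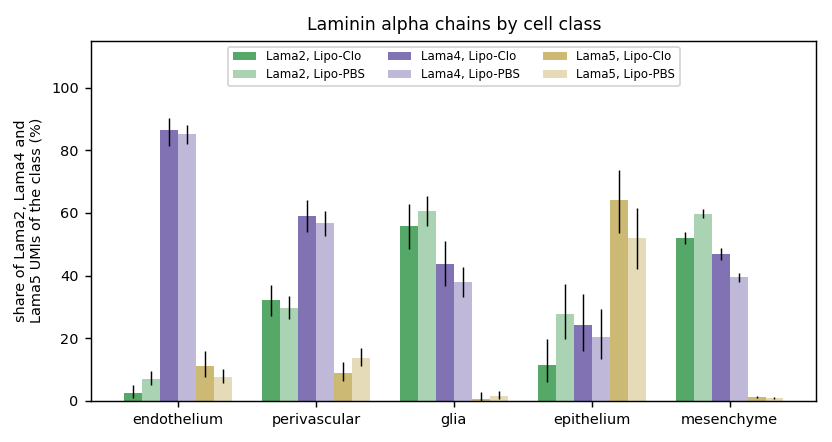
Share (%) of Lama2, Lama4 and Lama5 among their summed UMIs in each class and library. Lama4 makes up 86.3% and 85.3% in endothelium. Lama2 has the largest share in glia (55.8% and 60.7%) and Lama5 in epithelium (64.2% and 51.9%). Lama3, which had more UMIs than Lama5 in epithelium, is not counted.

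Lama2 and Lama5 also had the lowest correlation of the 45 pairs over the 56 subcluster points, at -0.22. Their RefSeq promoters, the 250 bases before the transcript start, are shown because these α chains were the least alike. The Lama2 promoter, chr10:27616943-27617192 on the minus strand of GRCm38.p6, has no CpG and 47.2% GC, and the Lama5 promoter, chr2:180225860-180226109 on the minus strand, has 19 CpGs and 72.4% GC. Capitals mark the GC box GGGCGG or its reverse complement CCGCCC.
Lama2 promoter: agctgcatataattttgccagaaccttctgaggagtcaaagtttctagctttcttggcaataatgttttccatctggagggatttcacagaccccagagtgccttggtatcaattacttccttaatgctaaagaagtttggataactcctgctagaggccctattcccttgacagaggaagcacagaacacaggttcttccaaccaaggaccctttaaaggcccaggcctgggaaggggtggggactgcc
Lama5 promoter: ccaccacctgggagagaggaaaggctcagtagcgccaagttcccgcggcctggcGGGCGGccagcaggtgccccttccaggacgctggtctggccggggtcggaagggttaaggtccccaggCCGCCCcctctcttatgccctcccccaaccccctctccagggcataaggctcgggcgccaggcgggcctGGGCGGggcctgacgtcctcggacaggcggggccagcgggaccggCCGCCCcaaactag
The promoter table matched 7 of the 10 members by symbol, and not Lama4, Lamc1 and Nid2. A GC box on either strand occurred in 5 of these 7 and in 32.7% of all 32851 promoters. The CpG count was 31 in Col4a1, 26 in Col4a2, 20 in Hspg2, 16 in Nid1 and 14 in Lamb1, beside a median of 6 over all promoters, of which 7.87% had none and 19.7% had at least 19. These are counts of letters in a fixed window and do not mark binding.

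Lamb1 and Lamc1 encode the β1 and γ1 chains shared by most laminins, and both were spread more evenly over the classes than the α chains. Lamb1 was highest in glia, at 389 and 363 CPM, followed by endothelium at 283 CPM (241 to 330.1) and 229.5 CPM (201 to 261). Perivascular cells held 175 and 125 CPM, mesenchyme 108 and 145 CPM, and epithelium 61.3 and 66.1 CPM. Epithelium thereby lay 2.63 and 1.94 times above the blood cells, unlike for the collagen IV chains. Lamc1 stood at 423 and 319 CPM in endothelium, 351 and 364 CPM in perivascular cells and 339 and 346 CPM in glia. In both libraries each of these 3 classes overlapped the next in order. Epithelium held 116 and 102 CPM of Lamc1 and mesenchyme 89.9 and 112 CPM.

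Nid1 and Nid2, the nidogens that link laminin to collagen IV, had different leading classes. Nid1 was highest in glia, at 369 CPM (304 to 445) and 356 CPM (307 to 411), with endothelium at 283 and 190 CPM, perivascular cells at 201 and 175 CPM and mesenchyme at 109 and 132 CPM. Nid2 was highest in endothelium, at 207 CPM (172 to 248) in Lipo-Clo and 102 CPM (83.0 to 124) in Lipo-PBS, where it overlapped glia at 97.0 CPM. Per UMI of Nid2, endothelium held 1.36 and 1.86 UMIs of Nid1 and glia 2.97 and 3.67. Hspg2 was highest in endothelium of Lipo-Clo, at 921 CPM (844 to 1003), and in glia of Lipo-PBS, at 552 CPM (490.0 to 619). Lipo-PBS endothelium held 438 CPM and Lipo-Clo glia 527 CPM. With the mean over cells, endothelium ranked first for Hspg2 in Lipo-PBS as well. The lymphatic endothelium-like subcluster described below held 129 CPM of Hspg2, from 28 Lipo-Clo and 112 Lipo-PBS cells. Its part in this change of class was not tested. Mesenchyme ranked above perivascular cells for this gene, at 260.1 and 242 CPM against 170.2 and 169 CPM. Nidogens in epithelium, at no more than 11.9 CPM for Nid1 and 4.87 CPM for Nid2, were below the blood cells, and Hspg2 there stood at 80.0 and 56.3 CPM against 52.2 and 57.7 CPM in blood cells.

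Summed over cells, the members differed in which class held most of their transcripts. Mesenchyme, with 52.0% of kept Lipo-Clo and 49.4% of kept Lipo-PBS cells, held 74.8% and 67.7% of all Lama2 UMIs, 71.4% and 61.3% of Nid1, 70.6% and 58.8% of Hspg2 and 67.5% and 46.1% of Nid2. For Col4a1 it held 26.0% in each library, while endothelium held 27.8% and 17.9% and perivascular cells 27.9% and 23.2% from 4.33% to 5.96% of the cells. Epithelium held 33.0% and 17.6% of Lama5 and perivascular cells 17.3% and 25.1%. The unnamed cells held 10.1% of Col4a1 in Lipo-Clo and 26.0% in Lipo-PBS, so shares of the named classes are of different remainders in the 2 libraries.

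Levels also varied within a class, taken here over both libraries. Among 4 endothelial subclusters the one led by Plcb1, Ptprg and Insr was highest for 9 members, with Col4a1 at 3762 CPM, Hspg2 at 1214 CPM and Nid2 at 346 CPM. The lymphatic endothelium-like subcluster led by Scn3a, Prox1 and Mmrn1 was lowest for 8 members, with 815 CPM of Col4a1, 129 CPM of Hspg2 and 28.6 CPM of Nid2. Lama2 went the other way and was highest there at 55.7 CPM. In perivascular cells the pericyte-like subcluster led by Higd1b, Ifitm1 and Cox4i2 held 3410 CPM of Col4a1, and the smooth muscle-like subcluster led by Sorbs2, Kcnab1 and Pcp4l1 held 1236 CPM. Lama5 was reversed, with 10.96 CPM in the pericyte-like and 214 CPM in the smooth muscle-like cells. That 19.5-fold difference was the widest of any member within perivascular cells, and Lama5 was 51.3% and 57.8% of the α chain UMIs of the smooth muscle-like cells. The pericyte-like cells had only 3 Lama5 UMIs in each library, so the size of that difference is uncertain. Lamb1 was nearly lacking in the smooth muscle-like cells, at 31.5 and 25.5 CPM. UMIs of its paralogue Lamb2, the β2 chain of muscle and synaptic laminins, were more numerous in them. Per UMI of Lamb2 they held 0.06 and 0.0667 UMIs of Lamb1. The pericyte-like cells held 55 and 51 UMIs of Lamb1 against 44 and 47 of Lamb2.

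Glial subclusters differed by α chain. The non-myelinating glia-like subcluster led by Abca8a, Slc35f1 and Tgfbr3 held 1081 CPM of Lama2, and the other non-myelinating glia-like subcluster, led by Scn7a, Csmd1 and Chl1, held 294 CPM. The latter was highest for Col4a1 at 1228 CPM, while the myelinating glia-like subcluster led by Ugt8a, Mt3 and Drp2 was lowest at 249.8 CPM. In that myelinating subcluster Lama2 made up 21 of 25 α chain UMIs in Lipo-Clo and 87 of 116 in Lipo-PBS. In mesenchyme the fibroblast-like subcluster led by Clec3b, Tnxb and Cd34 was highest for 7 members, with 387 CPM of Col4a1, 361 CPM of Lama2, 307 CPM of Nid1 and 381 CPM of Hspg2. The dental follicle-like subcluster led by Dio2, Grem1 and Mmp11 was highest for Col4a2 at 229.9 CPM, Nid2 at 73.3 CPM and Lama5 at 10.8 CPM. The odontoblast-like subcluster led by Dspp, Bglap and Phex was lowest for Lama4, Lamb1, Lamc1 and Nid1, with 18.3 CPM of Nid1. Among 7 epithelial subclusters the highest Lama5 level was 44.6 CPM, in the keratinocyte-like subcluster led by Krt15, Igfbp2 and Lgals7. The map of subcluster levels shows these contrasts.

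**Figure D3:**
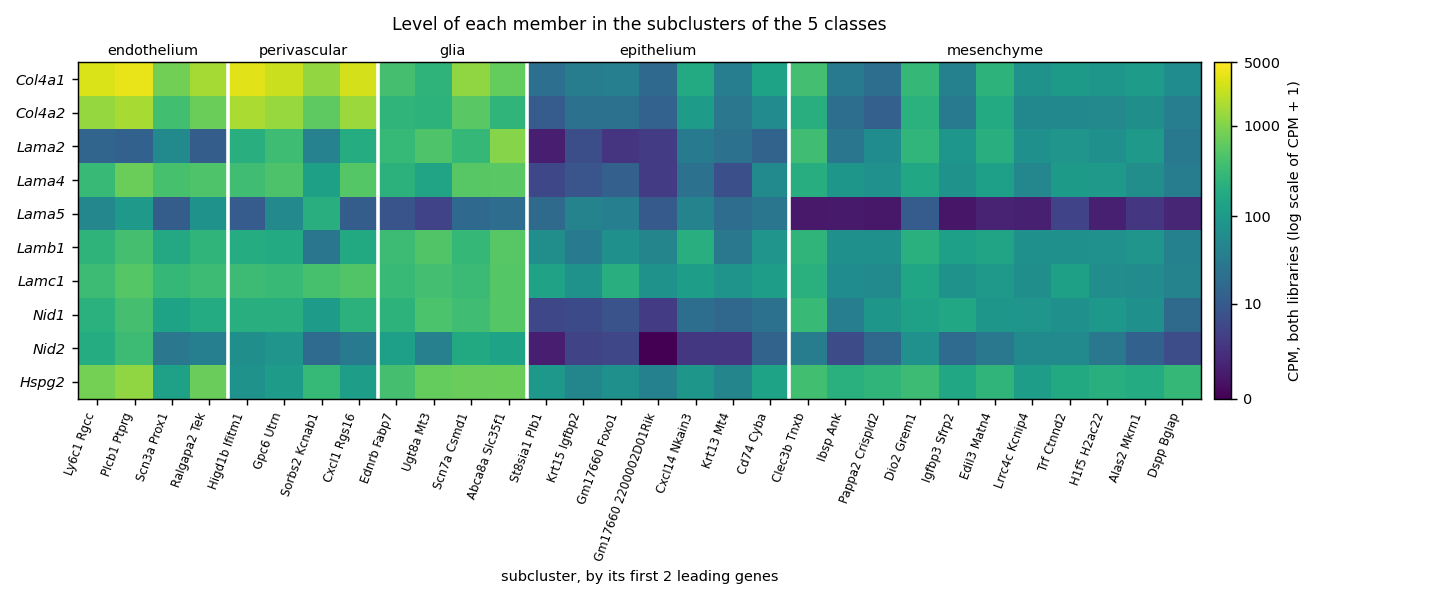
Level (CPM over both libraries, colour on a log scale of CPM + 1) of each member in the 30 subclusters of at least 50 cells, ordered by class and named by leading genes. Collagen IV is brightest in endothelial and perivascular subclusters and Lama5 is high in the smooth muscle-like subcluster (214 CPM) and low in the pericyte-like one (10.96 CPM).

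Outside the lists, the genes most like Col4a1 over the same 56 points, of 9512 compared, were Rhoj (Pearson correlation 0.91), Tm4sf1 (0.90), Tril (0.89), Mcam (0.89) and Rgs16 (0.88). Those most like Lama2 were Rarres2 (0.88), Col6a3 (0.87), Plac9 (0.87), Serpine2 (0.85) and Angptl2 (0.84). For Lama5 the values were lower, with Galnt18 (0.85), Rapgef5 (0.83), Atp10d (0.77), Pdlim1 (0.77) and Crim1 (0.76). Among the members Lama4 and Nid1 followed the collagen IV pair, with a correlation of 0.94.

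Lipo-Clo was then compared with Lipo-PBS within each class as the log2 ratio of CPM, positive where Lipo-Clo was higher. A member was counted as higher or lower when it reached 0.32 on the log2 scale with at least 50 UMIs over both libraries, by size alone. The classes differed in direction. In endothelium 6 of 9 members used were higher and 1 lower, beside 21.0% and 21.3% of all genes. In mesenchyme 7 of 10 were lower and 1 higher, beside 19.9% and 15.8%, and the other classes stayed near 0. With both libraries given the same subcluster proportions, as described below, Hspg2 was the only endothelial member still counted as higher. Lama4 and Lama5 were then counted as lower. The share of all genes past the limit was not computed at those proportions. With the stricter limit of 1.5-fold, 3 members were higher and 0 lower in endothelium, beside 8.28% and 10.4% of genes, and 1 was higher and 3 lower in mesenchyme, beside 3.75% and 7.69%. No member passed it in perivascular cells (8.09% of genes higher, 6.67% lower), glia (9.4% higher, 13.7% lower) or epithelium (9.69% higher, 10.4% lower). The plot of ratios by class shows the 5 classes.

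**Figure D4:**
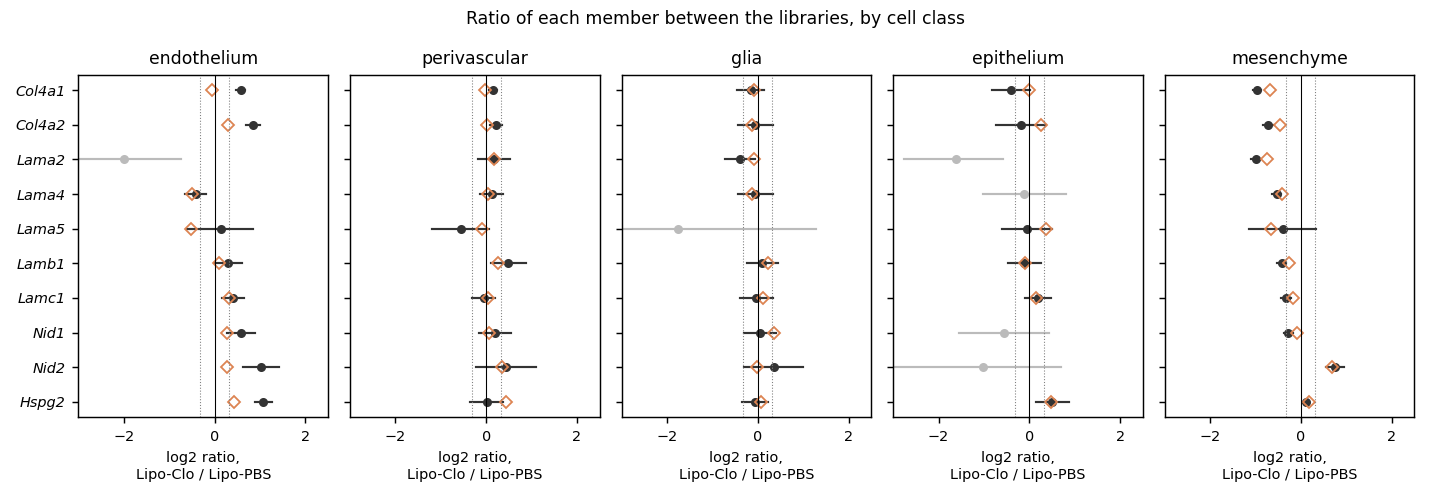
Log2 ratio of CPM (Lipo-Clo over Lipo-PBS) of each member in each class, with exact 95% intervals (long ones cut at the axis), grey where under 50 UMIs were counted, and dotted lines at 0.32 and its negative. Orange diamonds give the ratio with both libraries at the same subcluster proportions, weighted by UMIs over both. Mesenchymal Col4a1 (-0.97) and Lama2 (-0.996) stay below the limit at those proportions, while the endothelial Col4a1 value (0.58) moves to -0.049.

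In endothelium the background was 21.0% of 5323 genes higher and 21.3% lower past the same limit, and the median ratio was 0.58 over the members and 0.02 over all genes. The endothelial markers, which defined the class, moved in the same direction, from 5164 CPM in Lipo-PBS to 7811 CPM in Lipo-Clo with 9 of 10 higher, a log2 ratio of 0.60, and the neutrophil markers from 114.7 to 713 CPM with 8 of 9 higher. Their part in the members' ratios was not tested. Hspg2 had 921 CPM under clodronate liposomes against 438 CPM under vehicle, which is 1.07 (0.89 to 1.26) on the log2 scale. Nid2 followed with 1.03 (0.63 to 1.42), Col4a2 with 0.84 (0.69 to 0.99), Col4a1 with 0.58 (0.48 to 0.68), Nid1 with 0.58 (0.27 to 0.89) and Lamc1 with 0.41 (0.16 to 0.65). These 6 are the members counted as higher. Lama4 went the other way, at -0.41 (-0.65 to -0.18), but stood at 0.20 when the subclusters led by markers of another lineage were kept in the class. Lamb1 (0.30) and Lama5 (0.13) did not pass the limit, and Lama2 had 6 and 42 UMIs.

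The make-up of the endothelial class differed between libraries, since the lymphatic endothelium-like subcluster held 28 Lipo-Clo and 112 Lipo-PBS cells. Both libraries were then given the same proportions of the 4 subclusters, each weighted by its UMIs over both libraries (the same mixture). The median was 0.26 instead of 0.58, and Col4a1 turned to -0.049. Col4a2 stood at 0.30, Nid1 at 0.28, Nid2 at 0.26 and Lamc1 at 0.32, just short of the limit before rounding. Hspg2, at 0.42, then remained the only member counted as higher, and Lama4, at -0.49, and Lama5, at -0.52, were counted as lower. No share of all genes was computed at this mixture. Within subclusters Col4a2 was higher in Lipo-Clo in 4 of 4 (0.21 to 0.46), Lamc1 in 4 of 4 (0.15 to 0.70) and Hspg2 in 3 of 4. Their intervals lay above 0 in 1 subcluster for Col4a2, 0 for Lamc1 and 2 for Hspg2. Lama4 was lower in 4 of 4 (-0.86 to -0.11), with an interval below 0 in 2. Col4a1 was lower in 3 of 4 (-0.19 to 0.19), with an interval below 0 in 1 and above 0 in 1. Markers of other cells moved too: the mesenchyme list summed to 3488 and 10468 CPM in endothelium (0 of 10 markers higher in Lipo-Clo), the lymphatic list to 3813 and 7185 CPM (0 of 6), and the dissociation stress genes had a median ratio of -0.74, with 6 of 8 lower. The stress median was -0.15 in mesenchyme, -0.05 in perivascular cells, -0.09 in glia and -0.40 in epithelium. Their part in the ratios was not tested. Before subclusters led by markers of other lineages left the class, it also held a mesenchyme-led subcluster of 34 Lipo-Clo and 306 Lipo-PBS cells.

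In perivascular cells the collagen IV chains stayed within the limit. Col4a1 had a ratio of 0.16 (0.06 to 0.25) and Col4a2 of 0.21 (0.07 to 0.34). With each library clustered on its own they stood at 0.65 and 0.72, and 8 members were counted as higher with a median of 0.46. Under that setting the class held 368 Lipo-Clo and 758 Lipo-PBS cells, against 357 and 492 in the main setting. The share of all genes past the limit was not computed for it. In the main setting the other members were as follows. Lamb1, at 175 against 125 CPM, was higher with 0.49 (0.10 to 0.87), and Nid2 had 0.44 with an interval across 0 (-0.23 to 1.11). Lama5, at 54.5 and 80.1 CPM, was the member counted as lower, at -0.56 (-1.20 to 0.05). Thus 2 of 10 members were higher beside 25.5% of all genes, and 1 lower beside 17.3%, with a median of 0.16 over the members and 0.08 over all genes. Under the same mixture Hspg2 (0.43) and Nid2 (0.35) were counted as higher and no member as lower. The share of all genes past the limit was not computed for that mixture either. The smooth muscle-like subcluster, where Lama5 was highest, held 47 Lipo-Clo and 120 Lipo-PBS cells, and within it Lama5 was 210.0 and 215 CPM, a ratio of -0.03. Summed neutrophil markers stood at 1719 and 111 CPM in the perivascular cells of Lipo-Clo and Lipo-PBS, and their part in these ratios was not tested.

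In glia 1 of 9 members was lower, beside 24.6% of genes, and 1 higher, beside 27.0%. Lama2 stood at 373 against 485 CPM, a ratio of -0.38 (-0.72 to -0.05). The myelinating glia-like subcluster had 25 Lipo-Clo and 74 Lipo-PBS cells, the summed glial markers were 8523 and 15155 CPM, and with the same mixture the Lama2 ratio was -0.09 and that of Nid1 0.36. Neutrophil markers in glia summed to 4253 and 1994 CPM (8 of 9 higher in Lipo-Clo) and mesenchyme markers to 8594 and 7004 CPM (6 of 10). A subcluster of 28 cells led by Tyrobp, Cd52 and Cd74 also stayed in the class. Their part in the glial ratios was not tested. Within subclusters Lama2 was lower in 1 of 3 and higher in 2 of 3, from -0.94 to 0.48. Nid2 was counted as higher at 0.36 (-0.29 to 1.00), from 37 and 51 UMIs. The remaining 7 members used lay between -0.15 for Col4a1 and 0.10 for Lamb1, each with an interval across 0, and a difference of that size was not detectable at this depth.

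Epithelium gave 6 members with enough UMIs. Hspg2 was higher in Lipo-Clo, at 80.0 against 56.3 CPM and a ratio of 0.51 (0.14 to 0.87), and it had 0.48 under the same mixture and 2 of 2 subclusters higher. It fell short of the limit with doublets kept (0.27) and with other-lineage subclusters kept (0.14). The epithelial markers summed to 52065 and 24945 CPM (9 of 12 higher), osteoblast or cementoblast markers to 2345 and 1197 CPM (7 of 8) and neutrophil markers to 593 and 219 CPM (8 of 9), and their part in this ratio was not tested. Col4a1 was lower by size at -0.40 (-0.82 to 0.02), at a level that does not exceed the blood cells. The background was 20.5% of 8193 genes higher and 23.1% lower. Lamc1 (0.19), Lama5 (-0.05), Lamb1 (-0.11) and Col4a2 (-0.18) had intervals across 0. The ameloblast-like subcluster had 277 cells in Lipo-Clo against 72 in Lipo-PBS.

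Dental mesenchyme had the most UMIs and the clearest separation of members. Lama2 had 95.5 CPM (90.5 to 100.6) under clodronate and 190.4 CPM (183 to 198) under vehicle, a ratio of -0.996 (-1.09 to -0.90). Col4a1 stood at 98.9 CPM (93.9 to 104) and 194 CPM (186 to 201), a ratio of -0.97 (-1.06 to -0.88). Col4a2 had -0.72 (-0.83 to -0.60), Lama4 -0.54 (-0.64 to -0.43), Lamb1 -0.43 (-0.52 to -0.33) and Lamc1 -0.32 (-0.43 to -0.21). Lama5 passed the limit at -0.40 from 30 and 37 UMIs, with an interval from -1.14 to 0.34. These are the 7 members counted as lower, where 19.9% of all 13185 genes were lower and 15.8% higher. The median was -0.41 over the members and -0.02 over all genes. Nid1 was at -0.28 (-0.38 to -0.18), short of the limit.

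The nidogens parted in mesenchyme, and perlecan did not follow the laminins. Nid2 was higher in Lipo-Clo, at 39.1 CPM (36.0 to 42.5) against 23.3 CPM (20.8 to 26.0), a ratio of 0.75 (0.55 to 0.95). Hspg2 stood at 260.1 and 242 CPM, a ratio of 0.11 (0.04 to 0.17) that was within the limit. Its interval, which covers counting error only, lay above 0. UMIs of Nid1 per UMI of Nid2 were 2.78 (2.52 to 3.07) in Lipo-Clo and 5.68 (5.04 to 6.43) in Lipo-PBS, and UMIs of Col4a1 per UMI of Col4a2 were 1.37 (1.27 to 1.49) and 1.64 (1.54 to 1.74). Neither pair of intervals overlapped. For comparison the collagen IV ratio was 2.07 (1.90 to 2.26) and 2.48 (2.28 to 2.71) in endothelium and 2.01 and 2.08 in perivascular cells. Lamb1 per Lamb2 UMI was 1.96 and 2.96 in mesenchyme.

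The same genes were also lower in Lipo-Clo in the pooled blood cells, which served as background. There the ratio was -1.18 (-1.46 to -0.90) for Col4a1, -1.19 for Lama2, -0.79 for Col4a2, -0.75 for Lama4, -0.65 for Lamc1, -0.55 for Lamb1 and -0.51 for Nid1, but -0.11 for Nid2 and -0.14 for Hspg2. When the blood cell level of the same library was subtracted, the mesenchymal ratio was -0.79 for Col4a1, -0.67 for Col4a2, -0.95 for Lama2, -0.47 for Lama4, -0.39 for Lamb1, -0.14 for Lamc1 and -0.22 for Nid1, and 0.96 for Nid2 and 0.18 for Hspg2. With the same mixture of 11 subclusters it was -0.68 for Col4a1, -0.76 for Lama2 and -0.46 for Col4a2, and 0.69 for Nid2. Lamb1, Lamc1 and Nid1 were then within the limit, at -0.26, -0.17 and -0.10. In mesenchyme the endothelial markers summed to 34.0 and 55.6 CPM (0 of 10 higher in Lipo-Clo), perivascular markers to 614 and 685 CPM (2 of 11 higher), and neutrophil markers to 656 and 135 CPM (9 of 9 higher). Their part in the mesenchymal ratios was not tested.

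Across the 11 mesenchymal subclusters Col4a1 was lower in Lipo-Clo in 11 of 11, from -2.11 to -0.24, with an interval below 0 in 8. Among them is a subcluster led by Alas2, Mkrn1 and Gpx1, with 86 Lipo-Clo and 253 Lipo-PBS cells. Alas2 is on the erythroid marker list, and these cells stayed in the class. Lama4 was lower in 11 of 11 (7 with an interval below 0), Lamb1 in 10 of 11 and Lama2 in 8 of the 10 with enough UMIs. The largest Col4a1 differences were in the odontoblast-like subcluster, at 26.2 and 113 CPM (-2.11), and in the cycling subcluster led by H1f5, H2ac22 and H2ac24, at 44.3 and 165 CPM (-1.90). The blood cells stood at 41.5 and 94.3 CPM of Col4a1 (-1.18), so both subclusters lay near or below that background in Lipo-Clo. The subcluster led by Pappa2, Crispld2 and Tnn, at 20.8 CPM over both libraries, lay under it. The part of background in these ratios was not tested. In the fibroblast-like subcluster, which held 572 Lipo-Clo and 945 Lipo-PBS cells and had the highest level, Col4a1 was 269 and 453 CPM (-0.75). Col4a2 was lower in 10 of 11 and higher only in the subcluster led by Pappa2, Crispld2 and Tnn, at 15.7 and 6.99 CPM (1.16), a level under that of the blood cells. Nid2 was higher in 6 of 8, most in the dental follicle-like subcluster at 98.8 and 33.7 CPM (1.55), and lower in the pulp or papilla-like subcluster led by Trf, Ctnnd2 and Cntn4 at 51.2 and 67.5 CPM (-0.40). Hspg2 was higher in 10 of 11, from -0.26 to 0.53, with an interval above 0 in 2. The plot of subcluster ratios shows the spread. Cells of 1 subcluster in 1 library are not replicates of a condition, and the subclusters share the same 2 libraries.

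**Figure D5:**
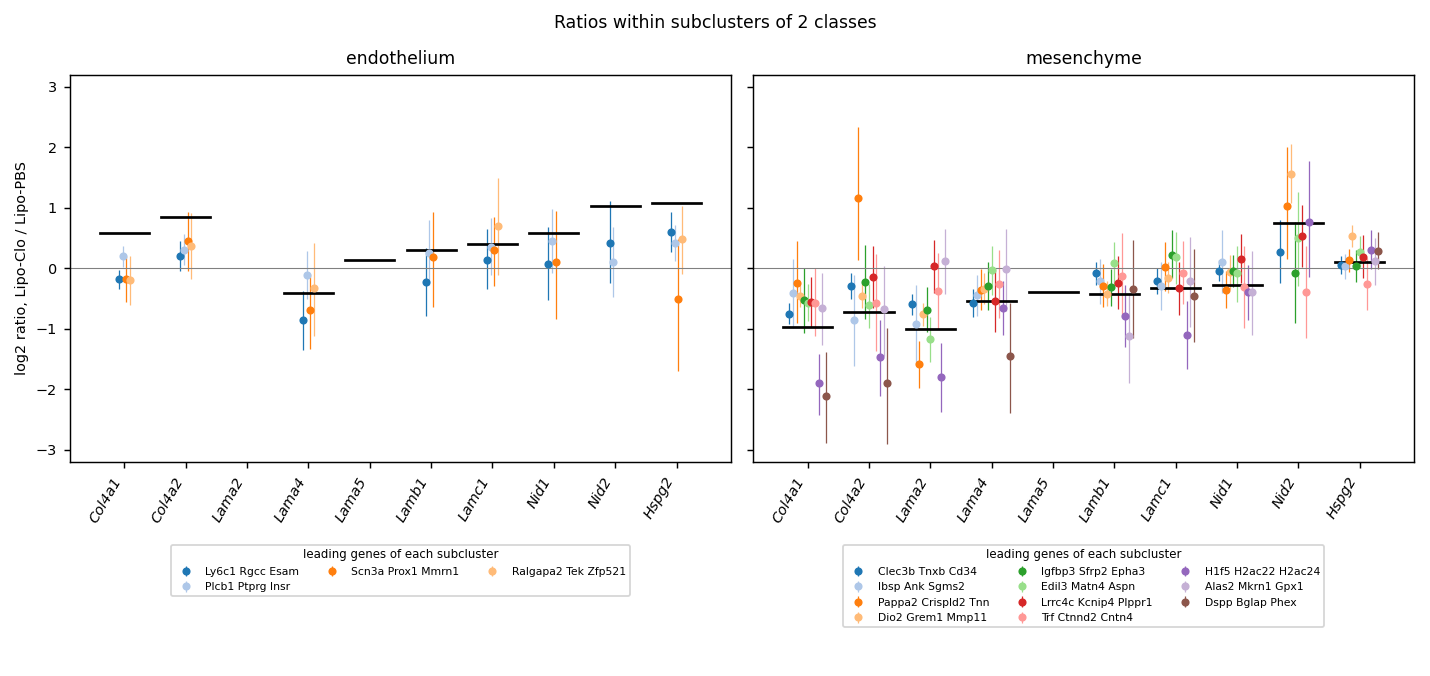
Log2 ratio of CPM (Lipo-Clo over Lipo-PBS) of each member in each subcluster with at least 50 UMIs of it (points, lines for exact 95% intervals) in endothelium and mesenchyme, with the value of the whole class as a black bar. Mesenchymal Col4a1 points lie below 0 in 11 of 11 subclusters, while endothelial Col4a1 points lie between -0.19 and 0.19 although the class value is 0.58.

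Counts of related genes past the same limit are read against the shares of all genes given above: 19.9% lower and 15.8% higher in mesenchyme, 21.3% and 21.0% in endothelium, 17.3% and 25.5% in perivascular cells, 24.6% and 27.0% in glia, and 23.1% and 20.5% in epithelium. In these lists the most abundant gene is the one with the most captured UMIs. Other type IV collagen and laminin chains were a list of 10 genes. In mesenchyme, beside 19.9% of genes lower and 15.8% higher, 8 had enough UMIs, 4 were lower and 2 higher, and the median was -0.56. Col4a6, an α chain of a minor collagen IV network, was lower at -1.03. Lamc3, the γ3 laminin chain, was higher at 107 and 70.5 CPM (0.60) and Lama1, the α1 chain of embryonic basement membranes, at 0.38. Lamb2, at 54.9 and 48.8 CPM, had the most UMIs after Lamc3. In epithelium Lama3 and Lamb3, chains of the laminin of anchoring filaments, were the most abundant, at 318 and 257 CPM and at 300.3 and 170.0 CPM. Lamb3 (0.82) was higher and Col4a6 (-2.84) and Col4a5 (-1.55) lower, and over the list the median was 0.16 with 2 of 6 in each direction. Under the same mixture the values were 0.20 for Lamb3, -2.17 for Col4a6 and -0.85 for Col4a5. In endothelium 2 chains were used, Lamb2 at 96.6 and 81.8 CPM and Lama3 at 43.9 and 35.9 CPM, and neither passed the limit (median 0.27). In perivascular cells Col4a5 was lower at -0.93 and Lamb2 was the most abundant at 228 and 235 CPM (median -0.49, 1 of 2 lower). In glia none had enough UMIs, and Lamb2 and Col4a5 were the most abundant, at 57.1 and 32.3 CPM and at 3.36 and 9.51 CPM.

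Other basement membrane proteins, a list of 18, had a median of -0.39 in mesenchyme, with 10 of 18 lower and 3 higher, beside 19.9% and 15.8% of all genes. Tinagl1 (-1.66) and Col15a1 (-1.01), a collagen of vessel and muscle basement membranes, were lowest, and Frem2 (0.78) and Col7a1 (0.74), which encodes anchoring fibril collagen, were highest. Col15a1 stood at -0.29 under the same mixture. Sparc, a collagen-binding matricellular protein, was the most abundant at 10323 and 10691 CPM (-0.05), followed by Hmcn1 at 85.2 and 169 CPM. In endothelium 6 of 9 were higher and 1 lower, beside 21.0% and 21.3% of genes (median 0.37), led by Vwa1 (1.21) and Tinagl1 (1.00) and with Hmcn1 lower (-1.16). Sparc and Col18a1 were the most abundant there, at 3170.1 and 3032 CPM and at 330.4 and 327 CPM. Under the same mixture Vwa1 was 0.25, Tinagl1 0.28 and Hmcn1 -0.94. In epithelium 8 of 12 were lower and 2 higher, beside 23.1% and 20.5% of genes (median -0.40). Hmcn1 (-1.22) and Frem2 (-1.17) were lowest and Smoc2 (1.16) and Vwa1 (0.89) highest. Sparc (682 and 892 CPM) and Col17a1 (665 and 647 CPM), a hemidesmosome collagen, were the most abundant. These epithelial ratios are without weighting to the same mixture. The ameloblast-like subcluster held 277 Lipo-Clo and 72 Lipo-PBS cells, and its part in them was not tested. Perivascular cells had 1 of 7 higher (median 0.17), Col18a1 at 0.45, with Sparc (3337 and 2834 CPM) and Tinagl1 (463 and 421 CPM) the most abundant. Glia had 4 of 7 higher and 1 lower (median 0.49), with Agrn (0.90) and Fbln2 (0.86) highest, Col15a1 (-0.50) lowest, and Sparc (4699.6 and 4503 CPM) and Col18a1 (554 and 396 CPM) the most abundant.

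Among 12 receptors, Itgb1, the β1 chain of most laminin- and collagen-binding integrins, was lower in 4 of the 5 classes. It stood at 540 and 916 CPM in mesenchyme (-0.76), 631 and 897 CPM in endothelium (-0.51), 1067 and 1671 CPM in perivascular cells (-0.65) and 611 and 904 CPM in glia (-0.56), against 510.1 and 493 CPM in epithelium (0.05, and -0.30 under the same mixture). The ratio was -0.81, -0.46, -0.50 and -0.60 in the first 4 under the same mixture, and Itgb1 was lower in 11 of 11 mesenchymal, 4 of 4 endothelial, 4 of 4 perivascular and 4 of 4 glial subclusters. In mesenchyme 6 of 10 receptors were lower and none higher, beside 19.9% and 15.8% of genes (median -0.57), with Itgb4 (-1.59) and the collagen receptor chain Itga1 (-1.33) lowest and Itgb1 and Ddr2 (126 and 150 CPM) the most abundant. Endothelium had 3 of 7 higher and 1 lower (median -0.09), with Itga1 (0.76) and Itga2 (0.62) highest and Itgb1 and the laminin receptor chain Itga6 (459 and 337 CPM) most abundant. Perivascular cells had 1 of 8 higher, Dag1 (0.47), which encodes dystroglycan, and 2 lower, Itgb1 and Ddr2 (-0.50). Itga1 was second in abundance there, at 555 and 583 CPM. Glia had 2 of 5 lower, Itgb1 and Itga6 (-0.35), a median of -0.24, and Dag1 second in abundance at 581 and 620.1 CPM. In epithelium 2 of 9 were higher, Itga6 (998 and 635 CPM, 0.65, and 0.13 under the same mixture) and Ddr1 (0.34), and Bcam was lower (-0.42).

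Of 13 genes for collagen IV and laminin assembly, 4 were lower and none higher in mesenchyme, beside 19.9% and 15.8% of genes (median -0.04), with the prolyl hydroxylases P3h2 (-0.90) and P4ha1 (-0.53) lowest. Serpinh1, the collagen chaperone HSP47, was the most abundant at 2036 and 1654 CPM, followed by P4hb at 308 and 318 CPM. In endothelium 3 of 11 were higher and 2 lower (median 0.22), with Qsox1 (0.67), Colgalt1 (0.42), Plod2 (-1.58) and P3h2 (-0.64) at the ends and Serpinh1 and P4hb most abundant (780.2 and 655 CPM, 169 and 173 CPM). In perivascular cells 2 of 12 passed the limit in each direction (median 0.10), Plod3 (0.56) and Serpinh1 (0.39) against P4ha1 (-0.54) and Mia3 (-0.46), and Serpinh1 (941 and 719 CPM) and Pxdn (177 and 147 CPM) were the most abundant. Glia had Serpinh1 higher (0.62) and Plod2 (-0.58) and Plod1 (-0.57) lower among 4 (median -0.17), with Serpinh1 (728 and 474 CPM) and P4hb (168 and 143 CPM) the most abundant. In epithelium 4 of 13 were higher and 2 lower (median 0.01), with Plod1 (1.06) and P3h2 (0.48) highest and Pxdn (-0.79), a peroxidase that crosslinks collagen IV, and Plod2 (-0.63) lowest. Serpinh1 (264 and 254 CPM) and P3h2 (209 and 149.5 CPM) were the most abundant there. All ratios given for this list are without weighting to the same mixture of subclusters.

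Of 8 proteases, 4 were lower and 1 higher in mesenchyme, beside 19.9% and 15.8% of genes (median -0.25). Tll1 (-1.24) and Mmp2 (-0.40), a gelatinase, were lowest and Mmp9 (0.45) was higher, and Mmp2 (512 and 674 CPM) and Mmp14 (447 and 566 CPM) were the most abundant. In endothelium 4 of 6 were lower and none higher (median -0.46), with Tll1 (-1.24) and Mmp2 (-1.16) lowest and Mmp14 (200.3 and 229.5 CPM) and Adamts1 (211 and 179.6 CPM) most abundant. Perivascular cells had Bmp1 (0.58), a procollagen proteinase, as the only one of 6 past the limit (median 0.06), with Adamts1 (299.6 and 299 CPM) and Mmp14 (192 and 162 CPM) the most abundant. Glia had 4 of 5 higher (median 0.42), led by Adamts1 (1.04) and Adamts5 (0.57), with Bmp1 (104 and 78.0 CPM) and Adamts1 (117 and 57.1 CPM) the most abundant. In epithelium Tll1 (0.90) and Bmp1 (0.88) were higher and Adamts1 (-0.95) lower among 5 (median -0.15), and Bmp1 (189 and 102 CPM) and Mmp14 (113 and 126 CPM) were the most abundant. Under the same mixture the epithelial values were -0.26 for Tll1, 0.28 for Bmp1 and -0.28 for Adamts1.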

How the data were processed

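The authors deposited 1 gene by cell matrix of raw UMI counts per library, made with Cell Ranger (version 8.0.0 per the file headers, 3.1.0 in the submitters' processing notes, which also name Seurat 3.1.1 and the builds GRCm39 and mm39). No other columns were used. Cells were required to have 200 genes and no more than 20% of UMIs from mitochondria, and were scored for doublets with Scrublet. Its automatic threshold marked 0% and 0.0112% of cells and had not worked, so the top-scoring 0.8% per 1000 cells were left out (632 Lipo-Clo and 633 Lipo-PBS cells). Both libraries were clustered together in scanpy 1.11.5 (2000 variable genes without the members and related lists, 30 components, 20 neighbours, Leiden resolution 1, seed 1), giving 27 clusters. Classes were named from marker lists by a rule settled after the data were seen. Each class was subclustered, and 10 subclusters led by markers of another lineage (1018 cells) left it. The mesenchymal subcluster led by Alas2, Mkrn1 and Gpx1 did not meet that rule and stayed. UMIs were summed per class and library and divided by the class total. The members and gene lists were chosen with earlier results of these data known. Named related genes were the 2 with the largest ratio in each direction past the limit with at least 50 UMIs and the 2 with the highest level, per list and class, except 1 gene that is not reported here. For Col4a1, Lama2 and Lama5 the 5 most alike genes were named. Scaling alternatives used edgeR 4.0.16 and DESeq2 1.42.0 factors. No test was run, and the ratio scripts were tested on simulated data. Of 500 simulated unchanged genes, 25.2% in endothelium and 9.0% in mesenchyme passed the size limit in either direction by counting error alone. The interval held the true ratio for 95.6% and 95.8% of these genes. For genes changed 1.5-fold it did so for 89.2% and 95.3%.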

Additional observations from a re-analysis of the deposited data

Results flagged for a closer look

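For 4 members the ratio of Lipo-Clo to Lipo-PBS pointed in opposite directions in different classes, past the size limit in each. Col4a1 had a log2 ratio of 0.58 in endothelium and -0.97 in mesenchyme, and Col4a2 had 0.84 and -0.72. Lamc1 had 0.41 in endothelium and -0.32 in mesenchyme, and Lamb1 had 0.49 in perivascular cells and -0.43 in mesenchyme. With 1 library per condition the difference between classes was not tested. At the same mixture of subclusters in both libraries the endothelial Col4a1 value was -0.049, which ended the opposition for that gene. Col4a2 was then 0.30 and Lamc1 0.32 in endothelium, Lamb1 0.25 in perivascular cells, and Lamc1 -0.17 and Lamb1 -0.26 in mesenchyme, all short of the limit.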

How the results depend on the processing

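No paired analysis was possible because the libraries are 1 per condition, and none could be left out. Over the alternatives, 688 of 760 member ratios stayed within the counting interval of the reported value. For 74 of 77 class medians the value stayed within the median of the members' interval limits. Counts of members have no interval and were called unchanged when equal to the reported count or within 1.5-fold of it. By that rule 68 of 87 counts of higher members and 59 of 87 counts of lower members were unchanged. Shares of all genes past a limit were computed only for the main setting and its 1.5-fold limit. The cause of the other changes was not tested. Taking both libraries, 7 to 10 of the 10 members kept their class with the highest level. The lowest count, 7, was in Lipo-PBS with each library clustered on its own. Col4a1 and Col4a2 were then highest in endothelium and Lamc1 in glia. Chosen after seeing the data were these settings: other-lineage subclusters kept, blood cell level subtracted, and the lymphatic endothelium-like or Alas2-led subcluster left out. In endothelium the median was 0.26 at the same mixture, 2 members were lower (Leiden resolution 0.5, every deposited cell, same mixture, without the lymphatic-like subcluster, no filter on low counts) or 0 (1.5-fold), and 1 (same mixture) or 3 (without the lymphatic-like subcluster, 1.5-fold) were higher. In perivascular cells, with each library clustered on its own (368 Lipo-Clo and 758 Lipo-PBS cells), the median was 0.46 and 8 members were higher. Otherwise 1 (other-lineage subclusters kept) or 0 (1.5-fold) were higher, and 0 lower (same mixture, 1.5-fold). In glia 2 (doublets kept, every cell, no filter), 4 (clustered alone) or 0 (mean over cells, same mixture, 1.5-fold) were lower, and 0 were higher under 9 settings (both Leiden resolutions, members among the variable genes, 500 genes and 10% mitochondrial UMIs, clustered alone, totals without mitochondrial, haemoglobin and ribosomal genes, mean over cells, other-lineage subclusters kept, 1.5-fold). In epithelium the median was -0.64 with doublets kept, and 0 (Leiden resolution 0.5, DESeq2 factors, mean over cells, same mixture, blood subtracted, 1.5-fold), 2 (Leiden resolution 2, members among the variable genes, clustered alone), 4 (no filter) or 5 (doublets or other-lineage subclusters kept) were lower, while 0 (doublets or those subclusters kept, 1.5-fold) or 2 (same mixture) were higher. In mesenchyme 3 were lower at 1.5-fold. Of members past the limit, direction reversed outside the counting interval for Col4a1 in endothelium (-0.049, same mixture), Lama4 in endothelium (0.20, other-lineage subclusters kept) and Col4a1 in epithelium (0.19, mean over cells). Other changes of sign were of values within their interval, short of the limit or under 50 UMIs. Depth left Lama2 in endothelium, Lama5 in glia, and Lama2, Lama4, Nid1 and Nid2 in epithelium under 50 UMIs.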
